A study of Arabidopsis thaliana with 210 samples.

Results

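Nuclei from Arabidopsis shoot apices were compared by how much of their RNA came from photosynthesis genes. For each nucleus, the share of nuclear-gene counts on 6 genes was taken: RBCS1A (AT1G67090), LHCB1.1 (AT1G29920), LHCB1.2 (AT1G29910), LHCB1.3 (AT1G29930), LHCB2.1 (AT2G05100) and LHCB2.2 (AT2G05070). Within each of the label groups p1 and p2, nuclei were chosen by this measured share: those in its top quartile are called rich and those in its bottom quartile poor. A nucleus needed at least 50000 counts on nuclear, plastid and mitochondrial genes, which 138 of 186 Smart-seq2 nuclei reached. The rule gave 72 nuclei out of the 206 single-nucleus wells of the series: 15 rich and 15 poor nuclei of p1, and 21 rich and 21 poor nuclei of p2. The nuclei between them, 27 in p1 and 39 in p2, are called middle.

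The nuclei came from ecotype Col-0 seedlings, with shoot apices taken 7 days after germination under long days on soil, and each well is labelled as stem cells and nuclear RNA. No treatment or mutant allele is labelled. Rich and poor nuclei were read with Smart-seq2, which amplifies whole transcripts from 1 nucleus per well. The series asks what ARGONAUTE proteins do in the shoot apical meristem, and what p1 and p2 stand for is not stated. No plant, pool or sort is named for a nucleus, so p1 and p2 each count as 1 sample. No test was therefore made, and every difference below describes these libraries.

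Plant cells that carry out photosynthesis draw its proteins from the nuclear and the plastid genome. Most subunits of the light-harvesting antenna, the photosystems and carbon fixation come from nuclear genes, whose proteins are imported into the plastid. Others come from the plastid's own genome. Rubisco fixes carbon dioxide, and its small subunit is encoded by the nuclear RBCS genes. LHCB proteins bind chlorophyll in the antenna of photosystem II. These genes are known to respond to light and to be strongly expressed in green leaf tissue, and less so in the stem cells at the tip of the meristem.

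The upstream regions of RBCS1A and LHCB1.3, which mark these nuclei, are shown beside those of 3 genes that did not enter the choice of nuclei and were higher in rich nuclei. Each holds the 250 bases before the RefSeq gene start (TAIR10.1), 5′ to 3′ on the gene's strand. Capitals mark a G-box (CACGTG), an I-box (GATAAG) or a GLK motif (CCAATC), searched on both strands. The regions are chr1:25049668-25049917, minus strand, for RBCS1A, chr1:10477635-10477884, plus strand, for LHCB1.3, chr5:15382072-15382321, minus strand, for RBCS2B, chr1:5447881-5448130, minus strand, for LHCB6 and chr4:11334102-11334351, plus strand, for PSBQA.
RBCS1A: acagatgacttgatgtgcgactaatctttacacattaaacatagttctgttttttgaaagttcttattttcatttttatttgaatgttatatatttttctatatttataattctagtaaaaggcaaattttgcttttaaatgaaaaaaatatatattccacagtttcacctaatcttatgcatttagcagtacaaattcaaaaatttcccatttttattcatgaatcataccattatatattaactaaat
LHCB1.3: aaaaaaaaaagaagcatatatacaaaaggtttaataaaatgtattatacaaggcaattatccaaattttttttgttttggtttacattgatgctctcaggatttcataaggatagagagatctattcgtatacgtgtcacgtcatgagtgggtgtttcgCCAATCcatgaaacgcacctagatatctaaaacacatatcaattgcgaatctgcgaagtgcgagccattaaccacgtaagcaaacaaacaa
RBCS2B: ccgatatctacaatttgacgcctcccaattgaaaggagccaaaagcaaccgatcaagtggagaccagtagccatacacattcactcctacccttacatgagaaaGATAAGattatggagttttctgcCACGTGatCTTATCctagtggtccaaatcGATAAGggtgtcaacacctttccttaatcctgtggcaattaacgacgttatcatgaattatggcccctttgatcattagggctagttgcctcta
LHCB6: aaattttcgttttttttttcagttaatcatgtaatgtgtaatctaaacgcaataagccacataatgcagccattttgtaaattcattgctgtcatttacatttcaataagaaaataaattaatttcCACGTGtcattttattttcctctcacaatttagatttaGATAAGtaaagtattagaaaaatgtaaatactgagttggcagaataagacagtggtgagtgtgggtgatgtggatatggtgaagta
PSBQA: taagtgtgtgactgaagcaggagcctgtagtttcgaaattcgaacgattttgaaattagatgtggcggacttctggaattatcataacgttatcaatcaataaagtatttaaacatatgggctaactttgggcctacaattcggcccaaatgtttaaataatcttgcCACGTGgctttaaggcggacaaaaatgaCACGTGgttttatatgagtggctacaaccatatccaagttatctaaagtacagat
RBCS2B held a G-box that began 123 bases before the gene start, between I-boxes on either side. LHCB6 held 1 G-box and 1 I-box, PSBQA held 2 G-boxes, LHCB1.3 held 1 GLK motif and RBCS1A held none of these letters in this window. The windows of LHCB1.1 and LHCB1.2 also held none, while those of LHCB2.1 and LHCB2.2 each held a GLK motif and that of LHCB2.1 also an I-box. The 3 genes shown beside the markers all held a G-box, so they do not stand for the other genes higher in rich nuclei. Among those, the windows of RBCS1B, RBCS3B and LHCB1.4 held none of the 3 motifs.

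The same search over 27437 protein-coding genes found a G-box in 6.49% of windows, an I-box in 12.3% and a GLK motif in 10.2%. Of the windows of 97 photosynthesis genes other than the 6 chosen ones, 18.6% held a G-box, 16.5% an I-box and 17.5% a GLK motif. Among the 24 of these genes that were higher in rich nuclei, the counts were 7 with a G-box, 8 with an I-box and 5 with a GLK motif. Over 2771 genes measured in rich and poor nuclei, 8.30% of windows held a G-box, 13.4% an I-box and 11.6% a GLK motif. The antenna genes held the GLK motif in 7 of 16 windows. An evening element (AAAATATCT) was found in 4.12% of photosynthesis windows against 2.36% of all, and a telo box (AAACCCTA) in 2.06% against 4.49%. A match is only a run of letters, and nothing was measured about what binds there.

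Rich and poor nuclei differed in sequencing depth, in opposite directions in p1 and p2. Total counts on genes had a median of 2515516 in p1 rich nuclei (range 1533747 to 4432959) and 2039320 in p1 poor nuclei (range 600812 to 8102382). In p2 the medians were 334209 in rich (range 163048 to 795240) and 416873 in poor nuclei (range 203267 to 1013924). Smart-seq2 counts rest on amplified reads without molecular identifiers.

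The 6 chosen genes together held 2.84% to 4.60% of nuclear-gene counts in p1 rich nuclei, with a median of 3.41%, and 0.280% to 2.05% in p1 poor nuclei, with a median of 1.76%. In p2 they held 2.55% to 12.3% in rich nuclei (median 3.07%) and 0.249% to 1.16% in poor nuclei (median 0.888%). The rule fixes that these groups do not overlap. At its edges the groups were close together: the last poor and the first middle nucleus lay at 2.05% and 2.07% in p1 and at 1.16% and 1.18% in p2. The first rich and the last middle nucleus lay at 2.845% and 2.843% in p1, and at 2.55% and 2.49% in p2. The division thus cuts a continuous range.

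A few nuclei stood apart in this share. In p2, 2 rich nuclei reached 12.3% and 7.92%, above the next at 4.50%. In p1, 1 poor nucleus lay at 0.280%, below the next at 1.23%, and it held the most counts of the p1 poor nuclei, 8102382. For photosynthesis genes outside the choice, the summed share and the number of genes higher or lower are also given without these nuclei. Other values include them unless stated.

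**Figure D1:**
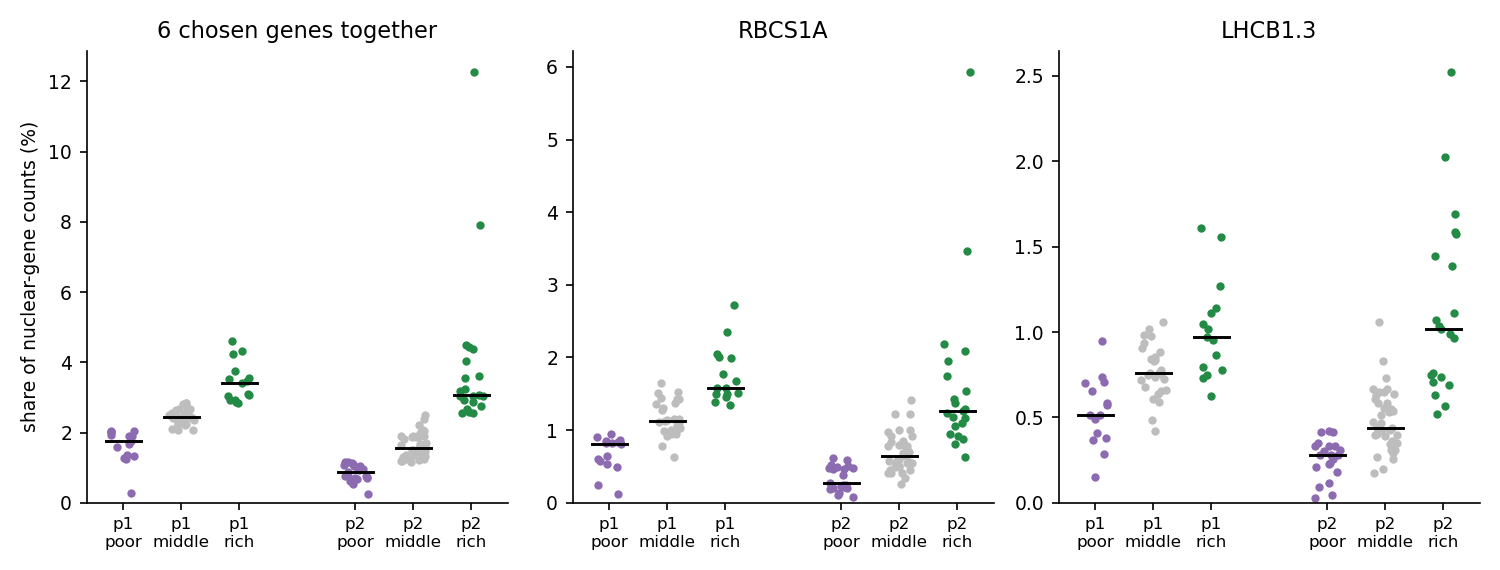
Share of nuclear-gene counts, in percent, on the 6 chosen genes together, on RBCS1A and on LHCB1.3, with 1 point per Smart-seq2 nucleus and black bars at the medians of the poor, middle and rich nuclei of p1 and p2. The groups of the first panel are separate by the rule, and the highest p2 nucleus lies at 12.3%.

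RBCS1A, a small subunit gene of Rubisco, was 1 of the 6 chosen genes and is given as a description. It held 0.127% to 0.947% of nuclear-gene counts in p1 poor nuclei (median 0.803%) and 1.34% to 2.72% in p1 rich nuclei (median 1.58%). In p2 it held 0.0804% to 0.616% in poor nuclei (median 0.271%) and 0.626% to 5.93% in rich nuclei (median 1.27%). Rich and poor nuclei did not overlap for this gene in p1 or in p2.

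LHCB1.3, an antenna gene of photosystem II, had medians of 0.973% in rich and 0.516% in poor nuclei of p1, and of 1.02% and 0.278% in p2. All 21 rich nuclei of p2 lay above the highest poor nucleus, whereas 9 of 15 did in p1. LHCB1.1 and LHCB1.2 overlapped widely in p1, where no rich nucleus exceeded the highest poor one. In p2, 16 and 15 of the 21 rich nuclei did.

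LHCB2.1 had medians of 0.108% in rich and 0.0701% in poor nuclei of p1, and LHCB2.2 of 0.0652% and 0.00466%. In p2 the medians of LHCB2.1 were similar, and that of LHCB2.2 was lower in rich nuclei. Their medians there were 0.0192% in rich against 0.0160% in poor nuclei for LHCB2.1, and 0.0185% against 0.0317% for LHCB2.2, while their log2 ratios of means were 1.01 and 0.77. The coding sequences of LHCB1.1, LHCB1.2 and LHCB1.3 are 95.6% to 96.4% identical. Those of LHCB2.1 and LHCB2.2 are 92.1% identical, and those of RBCS1B and RBCS2B 97.3%. Chosen genes also resemble genes outside the choice. RBCS1A is 90.4% to 90.6% identical to RBCS1B, RBCS2B and RBCS3B. LHCB1.3 is 87.02% identical to LHCB1.4 and 89.97% identical to LHCB1.5, and LHCB2.1 is 83.96% identical to LHCB2.3. Whether reads of the chosen genes were counted on these copies was not tested. How the authors' counting divided reads between such copies is not given in the sources used here, so single members of these families are uncertain.

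Wells outside the choice give a scale for these values. The bulk wells held the 6 genes at 2.79% (p1) and 1.67% (p2). The negative control wells, without a nucleus, held 8 and 6 counts of them, 0.389% and 0.394% of 2054 and 1523 nuclear-gene counts. Smart-seq3 nuclei of p2 ranged from 2.43% to 7.46% with a median of 4.54% (12 nuclei), and those of p1 from 0.0297% to 1.82% with a median of 0.879% (8 nuclei).

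Photosynthesis genes that did not enter the choice were higher in rich nuclei of both p1 and p2. They were 97 nuclear genes in 8 lists by role, and their summed share of the counts on other nuclear genes was taken, which leaves out the 6 chosen genes and ribosomal RNA genes. In p1 this share was 7.26% to 14.8% in rich nuclei (median 10.03%) and 1.57% to 8.98% in poor nuclei (median 5.54%). In p2 it was 5.51% to 31.01% in rich nuclei (median 8.79%) and 2.02% to 6.65% in poor nuclei (median 2.85%).

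All rich nuclei lay above the median of the poor nuclei, and 10 of 15 in p1 and 20 of 21 in p2 lay above the highest poor nucleus. The middle nuclei lay between, with medians of 7.20% and 5.91%. The log2 ratio of the mean share, rich over poor, was 0.83 in p1 and 1.73 in p2. Without the 3 nuclei that stood apart it was 0.76 and 1.49. The nucleus with 12.3% on the 6 chosen genes also had the highest share of the other 97, 31.01%. Negative control wells held 1.65% and 1.51% on these genes, from 33 and 20 counts, and the bulk wells 8.37% (p1) and 6.35% (p2).

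Across all nuclei with enough counts, the share of the 6 chosen genes and that of the 97 others had a Spearman's rho of 0.76 in p1 (n = 57) and 0.83 in p2 (n = 81). Smart-seq3 nuclei with at least 50000 counts, which the rule did not use, gave 0.80 in p2 (n = 12) and 0.43 in p1 (n = 6). Both shares come from the same library and share its depth and its RNA quality, so these are descriptions.

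**Figure D2:**
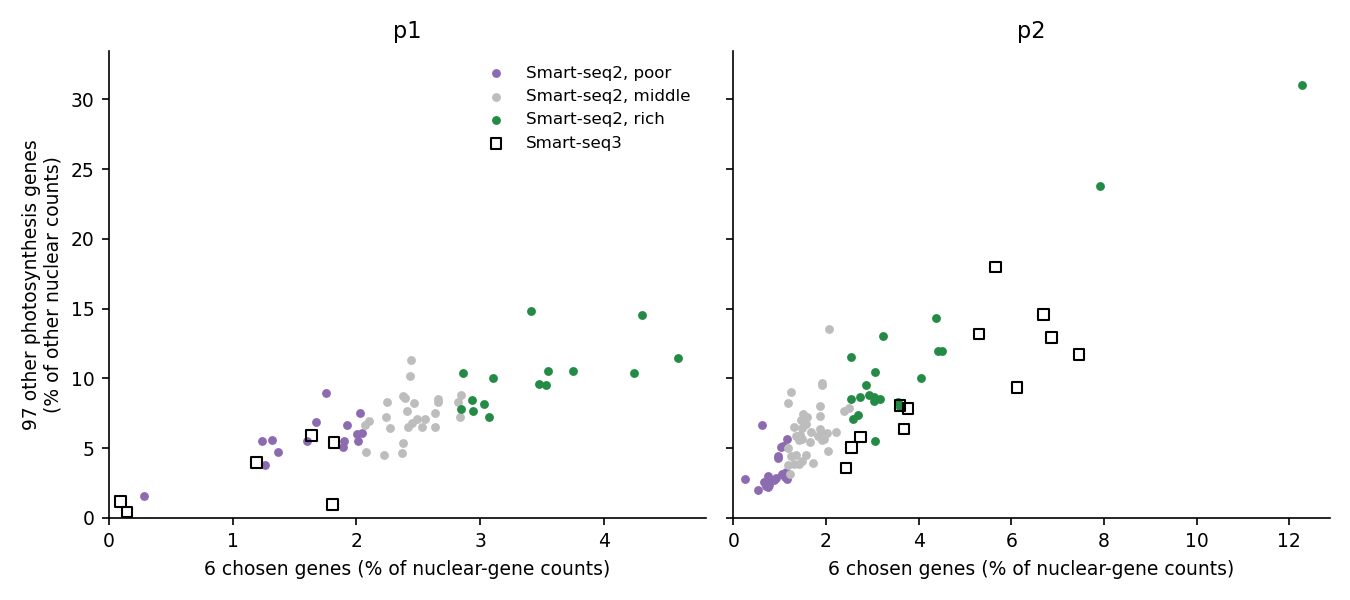
Summed share of 97 other photosynthesis genes, in percent of the counts on other nuclear genes, against the share of the 6 chosen genes, in percent of nuclear-gene counts, with 1 point per nucleus of p1 and p2. Rich p2 nuclei reach 31.01% on the vertical axis, and the squares are Smart-seq3 nuclei with at least 50000 counts.

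Gene by gene, a gene was counted as higher or lower when its mean CPM over nuclei lay at least 2-fold apart between rich and poor nuclei, on the same side in each of p1 and p2. CPM here are counts scaled to a fixed total of 1000000 over nuclear genes other than ribosomal RNA and the 6 chosen genes, each nucleus weighing the same. Genes needed a count in at least 25% of the rich and poor nuclei in p1 and in p2, which 2832 genes had. Of the 97 photosynthesis genes, 83 were measured this way. Of these, 24 were higher in rich nuclei (28.9%) and 0 were lower, against 5.19% higher and 7.80% lower over all 2832 genes.

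The median log2 ratio of the 83 was 0.68 in p1 and 1.48 in p2, against -0.02 and -0.16 over all genes. Both ratios were above 0 for 68 of the 83 and below 0 for 4, against 24.4% and 30.2% of all genes. At 4-fold, 1 was higher and 0 were lower, against 0.530% and 1.80%. In p1 alone 27 were at least 2-fold higher and 2 lower, against 20.0% and 24.3% of all genes. In p2 alone it was 59 and 1, against 19.2% and 25.3%. Spearman's rho of CPM with the share of the 6 chosen genes was above 0 in both for 66 of the 83, against 17.2% of all genes. With no filter on detection, 95 of the 97 had a ratio, of which 75 were above 0 and 6 below 0 in both. Of the 24, 19 were still higher in both when the highest nucleus of each group was left out. Without the 3 nuclei that stood apart, 18 photosynthesis genes were higher and 0 lower.

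**Figure D3:**
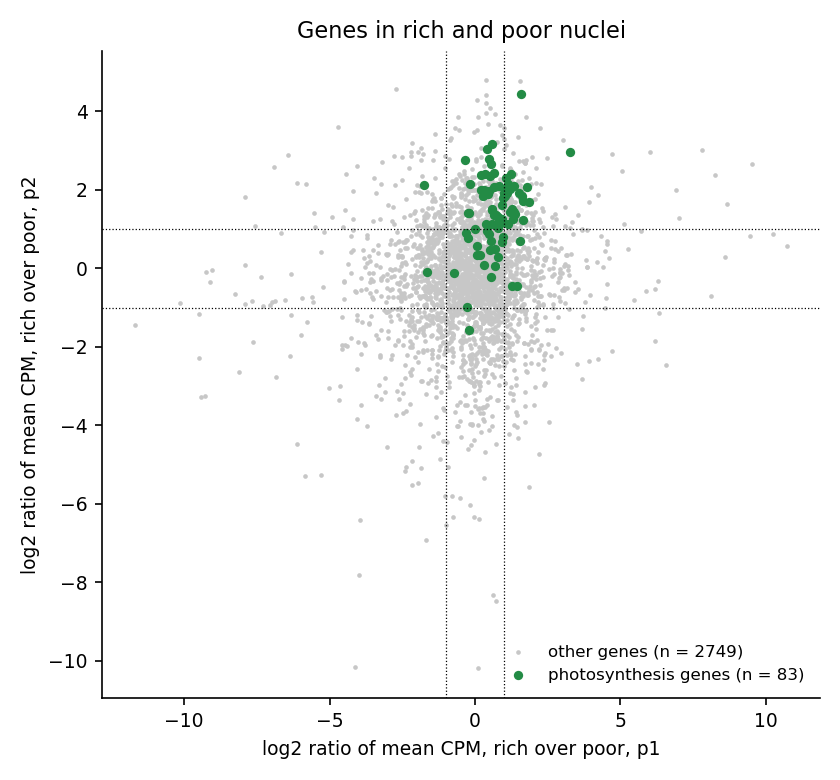
Log2 ratio of mean CPM, rich over poor, in p1 (horizontal) and p2 (vertical), with 1 point per gene among 2832 genes and photosynthesis genes in green. Dotted lines mark 2-fold, and 24 of the 83 photosynthesis genes lie beyond it in the upper right.

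Rubisco genes outside the choice were all higher, 4 of 4. Among them, RBCS1B, RBCS2B and RBCS3B resemble the chosen RBCS1A in sequence, and whether they hold reads of RBCS1A was not tested. RBCS3B, another small subunit gene, had 113 to 5334 CPM in p1 poor nuclei (median 1962 CPM) and 3065 to 16394 CPM in p1 rich nuclei (median 4350 CPM). In p2 it had 19.1 to 3244 CPM in poor (median 1322 CPM) and 2135 to 18598 CPM in rich nuclei (median 5368 CPM). The groups overlapped, more in p1 than in p2. Its log2 ratios were 1.33 in p1 and 2.101 in p2.

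RBCS1B (1.503 and 1.92) and RBCS2B (1.78 and 2.08) had log2 ratios of like size. RCA, which encodes Rubisco activase, an enzyme that frees Rubisco of inhibitory sugars, had a median of 4141 CPM in rich against 2055 CPM in poor nuclei of p1, and of 2687 CPM against 697 CPM in p2. Its log2 ratios were 1.02 and 1.94.

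Antenna genes were higher for 4 of 12 measured, out of 16 listed. Among these, LHCB1.4 resembles the chosen LHCB1.3 in sequence, and whether it holds reads of LHCB1.3 was not tested. LHCB1.4, a further major antenna gene of photosystem II, had the highest mean log2 ratio of the photosynthesis genes, 3.28 in p1 and 2.97 in p2. In p1 it had 0.267 to 1689 CPM in poor nuclei (median 64.7 CPM) and 224 to 15265 CPM in rich nuclei (median 1031 CPM). In p2 it had 0 to 1118 CPM in poor (median 137 CPM) and 0 to 6934 CPM in rich nuclei (median 1696 CPM). Its ranges overlapped, and at least 5 counts were present in 15 of 15 rich against 11 of 15 poor nuclei of p1, and in 18 of 21 against 12 of 21 of p2.

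LHCB4.1 and LHCB6 encode minor antenna proteins, CP29 and CP24, and had log2 ratios of 1.61 and 1.83, and of 1.65 and 1.72. LHCA1, an antenna protein of photosystem I, had 1.14 and 2.15. All 12 antenna genes were at least 2-fold higher in p2, so it was p1 that set the count. LHCB3, for example, had 0.21 in p1 and 2.00 in p2. The summed antenna share had medians of 2.36% in rich and 1.48% in poor nuclei of p1, and of 3.66% and 0.853% in p2, where 20 of 21 rich nuclei exceeded the highest poor nucleus.

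Photosystem II genes were higher for 5 of 12. They were PSBQA and PSBQ2, of the oxygen-evolving complex, and the small subunits PSBR, PSBX and PSBTN. PSBR had a median of 2715 CPM in rich against 1581 CPM in poor nuclei of p1 and of 3357 CPM against 791 CPM in p2. Its log2 ratios of 1.197 and 2.04 became 0.95 and 1.69 without the highest nucleus of each group, so the p1 value no longer passed 2-fold. PSBQA (0.93 in p1) and PSBQ2 (0.85 in p1) likewise missed it. PSBX and PSBTN stayed beyond 2-fold. All 12 genes had log2 ratios above 0 in p1 and in p2.

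Photosystem I genes were higher for 3 of 12: PSAH2, PSAK and PSAO, which encode subunits of that complex. PSAK had a median of 689 CPM in rich and 242 CPM in poor nuclei of p1, and of 677 CPM and 187 CPM in p2, with log2 ratios of 1.85 and 1.69. PSAH2 and PSAO fell below 2-fold in p2 without the highest nuclei, at 0.96 and 0.89. In p2 the PSAH2 median was 9.54 CPM in rich and 43.4 CPM in poor nuclei, against its mean ratio. PSAD2 and PSAE2 had the largest p2 log2 ratios of the group, 3.16 and 3.05, with 0.59 and 0.41 in p1.

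Electron transport genes were higher for 2 of 8 measured, out of 10 listed: PETE2, a plastocyanin, with log2 ratios of 1.31 and 1.25, and FD2, a ferredoxin, with 1.198 and 1.43. PETE1, the other plastocyanin gene, had -1.67 and -0.10, and FNR2, a ferredoxin reductase, -0.27 and -0.999. These were 2 of the 4 photosynthesis genes with both ratios below 0. The remaining 2 were CHLD and CAO, of chlorophyll synthesis.

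Carbon fixation genes were higher for 2 of 16 measured, out of 17. FBA1 and FBA2 encode plastid aldolases of the Calvin-Benson cycle, and their log2 ratios were 1.27 and 1.52, and 1.12 and 1.14. In the same list GAPB had 0.51 and 2.36, PGK1 0.56 and 2.67, and SBPASE -0.36 and 2.76. The summed share of the list had medians of 1.75% in rich and 1.04% in poor nuclei of p1, and of 1.03% and 0.380% in p2.

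Photorespiration, which recovers carbon after Rubisco takes up oxygen, had 4 of 11 measured genes higher, out of 12. SHM1 and GDCH act on glycine in mitochondria, and HPR1 and AGT act in peroxisomes. HPR1 had log2 ratios of 1.60 and 4.43. At least 5 counts of HPR1 were found in 12 of 15 rich and 11 of 15 poor nuclei of p1, and in 12 of 21 rich and 5 of 21 poor nuclei of p2. AGT, with 1.11 and 2.05, had a median of 0 CPM in both groups of p2.

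Chlorophyll synthesis had 0 of 8 measured genes higher or lower in both, out of 14. Its median log2 ratios were 0.13 in p1 and 0.34 in p2. GUN5, a magnesium chelatase subunit, had 0.08 and 0.34, and CRD1, a later enzyme of the pathway, 0.66 and 2.07. HEMA1, at the entry of the pathway, had -1.76 in p1 and 2.13 in p2. The summed share of the list had medians of 0.486% in rich and 0.424% in poor nuclei of p1, where no rich nucleus exceeded the highest poor one. In p2 the medians were 0.457% and 0.172%, with 18 of 21 rich nuclei above the poor median and 10 of 21 above the highest poor nucleus.

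**Figure D4:**
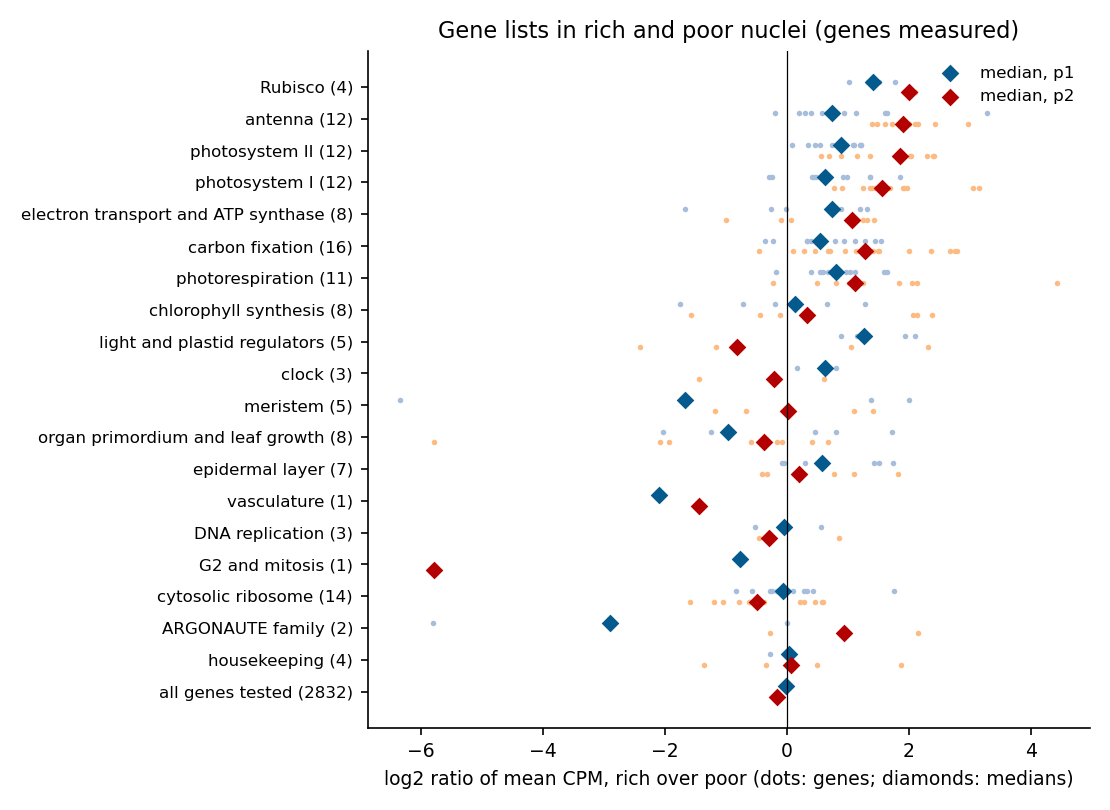
Log2 ratio of mean CPM, rich over poor, per gene (dots) and per list (diamonds at the median), in p1 and p2, for the lists with measured genes, whose number stands in parentheses. Medians of the Rubisco, antenna and photosystem lists lie above 0 in both, next to -0.02 and -0.16 for all genes.

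Regulators of light responses and plastid signalling were mostly too low to measure, 5 of 17. Of these, PIF5, a phytochrome-interacting transcription factor, and GUN1, of plastid-to-nucleus signalling, were higher, with log2 ratios of 1.26 and 1.05, and of 1.15 and 2.32. Both rest on few nuclei. GUN1 had at least 5 counts in 7 of 15 rich and 7 of 15 poor nuclei of p1, and in 3 of 21 rich and 6 of 21 poor nuclei of p2. The list as a whole differed between p1 and p2. Of the 5 genes, 4 were at least 2-fold higher and 0 lower in p1, and 2 higher and 2 lower in p2. Their median log2 ratios were 1.26 and -0.81. The summed share of the list had medians of 0.128% in rich and 0.0775% in poor nuclei of p1. In p2 these were 0.0626% and 0.0708%. With no filter on detection, 16 genes had a ratio, of which 4 were above 0 and 6 below 0 in both. Clock genes had 0 of 3 measured genes higher or lower, out of 11. LHY had log2 ratios of 0.17 and 0.60, and CCA1 0.63 and -0.21.

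The labelled cell type was checked with meristem genes. CLV3, the peptide gene that defines stem cells of the shoot meristem, had a count in 7 of 15 rich nuclei of p1 (46.7%, exact Clopper-Pearson 95% interval 21.3% to 73.4%) and in 1 of 15 poor nuclei (6.67%, 0.169% to 31.9%). These intervals cover counting error over the nuclei of 1 sample only, not differences between plants. A single count sufficed here and depth was not made equal, and p1 rich nuclei had the higher median depth. In p2 it had a count in 2 of 21 rich and in 2 of 21 poor nuclei. In the middle nuclei it was 12 of 27 in p1 and 2 of 39 in p2. Most nuclei held no count of CLV3. The reporter sequence mCherry, which the labels do not mention, had a count in 8 of 15 rich and 9 of 15 poor nuclei of p1, and in 2 of 21 rich and 2 of 21 poor nuclei of p2. OLEO1 and WOX5, of seeds and roots, each had counts in 1 of the 72 nuclei.

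Of the meristem list, 5 of 12 genes were measured. STM, a homeobox gene that keeps meristem cells undifferentiated, was lower in rich nuclei, with a mean of 1.45 CPM against 117 CPM in p1 and of 106 CPM against 240 CPM in p2. At least 5 counts of STM were in 3 of 15 rich and 4 of 15 poor nuclei of p1, and in 5 of 21 and 6 of 21 of p2, so the means rest on its level in few nuclei. HAM2, a HAIRY MERISTEM gene, was higher, with log2 ratios of 2.01 and 1.103, also from few nuclei. The summed share of the list ran from 0 to 0.396% in p1 rich and from 0.000110% to 0.369% in p1 poor nuclei, with medians of 0.0398% and 0.0868%. In p2 it ran from 0 to 0.693% in rich and from 0.000236% to 0.427% in poor nuclei, with medians of 0.144% and 0.0721%. The medians of the list thus lay in opposite directions in p1 and p2, whereas the mean of STM was lower in rich nuclei of both.

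The organ primordium and leaf growth list had 8 of 22 genes measured, with 0 higher and 2 lower. AIL6, an AINTEGUMENTA-like growth gene, had means of 75.3 CPM in rich against 154 CPM in poor nuclei of p1 and of 2.205 CPM against 122 CPM in p2. GRF2, a growth-regulating factor, had log2 ratios of -1.24 and -2.08. The summed share of this list had medians of 0.111% in rich and 0.127% in poor nuclei of p1. In p2 the medians were 0.0734% and 0.158%, and 8 of 21 rich nuclei lay below the lowest poor nucleus.

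Other cell identities were also read. In the epidermal layer list 1 of 7 measured genes was higher, CER6, an enzyme of cuticle wax synthesis, with log2 ratios of 1.74 and 1.103. The summed epidermal share ran from 0.0808% to 0.825% in rich and from 0.0572% to 0.718% in poor nuclei of p1, with medians of 0.349% and 0.178%. In p2 it ran from 0.000415% to 2.14% in rich and from 0.000530% to 3.22% in poor nuclei, with medians of 0.599% and 0.273%. The groups overlapped, but 13 of 15 rich nuclei of p1 and 17 of 21 of p2 lay above the poor median. The middle nuclei did not lie between them, with medians of 0.390% in p1 and 0.207% in p2. Across all Smart-seq2 nuclei with enough counts, Spearman's rho of the epidermal share with that of the chosen genes was 0.14 in p1 and 0.21 in p2. The median epidermal share was thus higher in rich than in poor nuclei, without a steady rise across the groups. The part of epidermal cells in the photosynthesis difference was not tested. In the vasculature list the only measured gene of 11, ATHB15, a class III homeodomain-zipper gene also active in meristems, was lower, with -2.10 and -1.44.

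Stomatal lineage and organ boundary lists had 0 measured genes of 6 and of 8. SPCH and CUC3 were at 0 in every rich and poor nucleus of p2. TMM had counts in 3 rich and poor nuclei of p1 and in 3 of p2, and BOP1 in 6 and 1. The part of such cell types in the photosynthesis difference was not tested.

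Among measured genes of cell division and of general cell functions, 0 were beyond 2-fold on the same side in both p1 and p2. Few division genes were measured, so a common difference in those lists could be missed. DNA replication had 0 of 3 measured genes beyond 2-fold in both, out of 12. AT5G65360 had log2 ratios of 0.55 and 0.85, MCM5, a subunit of the replicative helicase, -0.05 and -0.29, and AT5G10400 -0.52 and -0.46. In the G2 and mitosis list the 1 measured gene of 13 was CDC20.1, with -0.78 and -5.79. Its highest p2 value, 25944 CPM, came from 1 poor nucleus. CYCB1;2 had counts in 10 rich and 12 poor nuclei of p1, and in 0 rich and 6 poor nuclei of p2. With no filter on detection, 12 genes of the G2 and mitosis list had a ratio, of which 1 was above 0 and 6 below 0 in both. The summed share of that list had medians of 0.112% in rich and 0.0776% in poor nuclei of p1. In p2 these were 0.000415% and 0.00511%.

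Of 14 cytosolic ribosomal protein genes, all were measured and 0 were beyond 2-fold in both, with median log2 ratios of -0.07 and -0.49. Both ratios were above 0 for 2 of the 14 and below 0 for 5, against 24.4% and 30.2% of all genes. RPL10A had 0.33 and 0.28, and RPL5A -0.16 and -0.61. For the housekeeping list it was 0 of 4 measured, out of 6, with median log2 ratios of 0.03 and 0.07. UBQ10, a polyubiquitin gene, had -0.28 and -0.35, and AT5G60390 had 0.05 and -1.36. Of the ARGONAUTE family, which the study is about, 2 of 10 genes were measured and 0 were beyond 2-fold in both. AGO4 had 0.01 and -0.27, and AGO10, which is known to act in meristem maintenance, had -5.80 in p1 and 2.15 in p2. At least 5 counts of AGO10 were in 3 of 15 rich and 4 of 15 poor nuclei of p1, and in 7 of 21 and 8 of 21 of p2. AGO9, which was not measured by the rule, had counts in 8 rich and 9 poor nuclei of p1, and in 3 and 3 of p2.

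Among all 2832 genes, 147 were higher and 221 lower in rich nuclei, and 112 and 195 of these stayed so without the highest nucleus of each group. Among the 637 genes with a count in at least 50% of nuclei the balance turned, with 48 higher and 18 lower. A gene could pass the 25% filter through its counts in 1 of the groups alone, so the ratio of a sparse gene is a description only. Besides LHCB1.4, the 12 genes with the highest mean log2 ratio among those that stayed held OHP, a one-helix protein of the thylakoid, PIP1A, a plasma membrane aquaporin, TMT1, a sugar transporter of the vacuole, and GTR2, a glucosinolate transporter. OHP had at least 5 counts in 10 of 15 rich and 6 of 15 poor nuclei of p1, and in 7 of 21 and 3 of 21 of p2. PIP1A had at least 5 counts in 8 of 15 and 5 of 15 of p1, and in 8 of 21 and 3 of 21 of p2, with mean levels of 267 CPM against 32.4 CPM and of 328 CPM against 34.2 CPM.

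TMT1 and GTR2 rest on few nuclei. At least 5 counts of GTR2 were in 3 rich and 2 poor nuclei of p1 and in 5 and 4 of p2, and its p1 log2 ratio of 6.01 became 1.33 without the highest nucleus. For TMT1 the numbers of nuclei were 3 and 2, and 4 and 1.

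The others were APRL5, MAP70-1, AT1G23130, AT1G65490, AT3G15200, AT5G07890 and AT4G37820. Each of these 7 had at least 5 counts in no more than 4 rich and 1 poor nuclei of p1, so their ratios rest on few nuclei. In p2, AT1G65490 had at least 5 counts in 10 of 21 rich and 4 of 21 poor nuclei. For the others the numbers of rich and poor nuclei of p2 were closer. They were 7 and 6 for APRL5, 4 and 4 for MAP70-1, and 5 and 4 for AT1G23130. For AT3G15200 they were 3 and 2, for AT5G07890 6 and 5, and for AT4G37820 6 and 4.

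Among the 12 lowest, MP (MONOPTEROS), an auxin response factor needed for organ initiation and vascular development, had the lowest mean log2 ratio, and it passed the filter mostly through the poor nuclei: a count was present in 4 of 15 rich and 10 of 15 poor nuclei of p1, and in 1 of 21 and 11 of 21 of p2. In p1 it had 0 to 97.5 CPM in rich (median 0 CPM) and 0 to 721 CPM in poor nuclei (median 1.92 CPM). In p2 it had 0 to 4.61 CPM in rich (median 0 CPM) and 0 to 1408 CPM in poor nuclei (median 4.78 CPM). At least 5 counts of MP were in 2 of 15 rich against 8 of 15 poor nuclei of p1, and in 0 of 21 against 10 of 21 of p2.

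GRP2B, a glycine-rich RNA-binding protein with a cold shock domain, had at least 5 counts in 4 rich and 6 poor nuclei of p1, and in 1 and 10 of p2. SHM2, a relative of SHM1, was lower while SHM1 was higher: at least 5 counts of SHM2 were in 1 rich and 5 poor nuclei of p1, and in 2 and 9 of p2. OBF5, a bZIP transcription factor, and iqd32, a calmodulin-binding protein, were also among the 12. So were ARK3, a kinesin, RABG3A, a small GTPase, ABCC3, a membrane transporter, and AT3G19790, AT1G33680, AT4G31020 and AT2G40660. At least 5 counts of iqd32 were in 0 of 15 rich and 6 of 15 poor nuclei of p1, and in 5 of 21 and 12 of 21 of p2.

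Plastid-encoded genes held 9.40% to 17.8% of all counts on genes in p1 rich nuclei (median 12.4%) and 2.89% to 16.2% in p1 poor nuclei (median 10.9%). In p2 they held 12.1% to 35.8% in rich (median 20.6%) and 6.31% to 27.7% in poor nuclei (median 14.01%). Only 1 of 15 and 2 of 21 rich nuclei exceeded the highest poor nucleus, but 13 of 15 and 19 of 21 exceeded the poor median. Plastid RNA comes from outside the nucleus, and it made up 47.2% and 50.4% of the 7953 and 8676 counts in the negative control wells. Its part in the photosynthesis difference was not tested.

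Fewer genes were detected in rich than in poor nuclei of p2. At 20000 counts on other nuclear genes per nucleus, the median was 1475 genes (range 757 to 3624) in rich and 2217 genes (range 1302 to 4576) in poor nuclei, and 9 of 21 rich nuclei lay below the lowest poor nucleus. Without thinning the medians were 1964 and 2941 genes. In p1 the medians were 2581 and 2647 genes at 20000 counts, and 5363 and 5099 genes without thinning. Ribosomal RNA genes held a median of 10.9% of nuclear-gene counts in rich and 14.995% in poor nuclei of p2, and of 4.35% and 5.46% in p1. The mitochondrial share had medians of 2.97% in rich and 2.05% in poor nuclei of p1, and of 1.61% and 1.44% in p2. Transposable elements held 0.580% against 0.725% in p1, and 1.99% against 1.97% in p2.

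**Figure D5:**
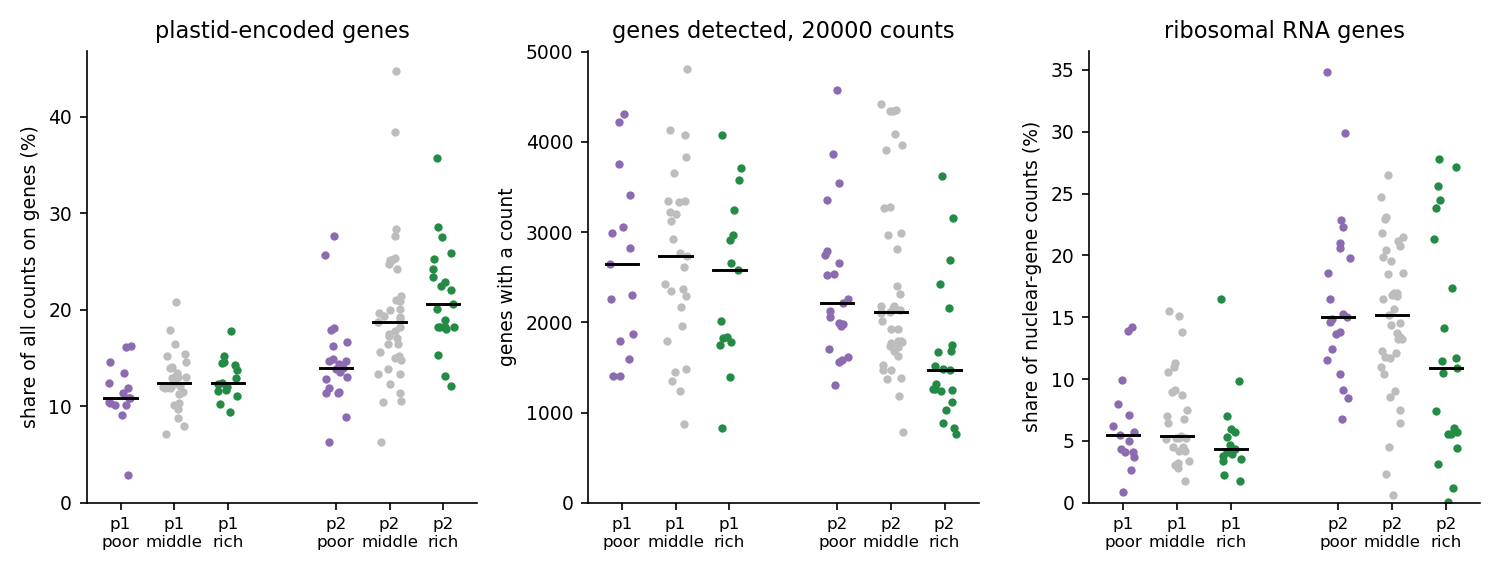
Share of plastid-encoded genes in all counts on genes, nuclear genes with a count after thinning to 20000 counts, and share of ribosomal RNA genes in nuclear-gene counts, with 1 point per Smart-seq2 nucleus and black bars at the medians. In p2 the rich nuclei have the higher median plastid share, 20.6% against 14.01%, and the lower median number of genes, 1475 against 2217.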

How the data were processed

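Nuclear RNA was read in 210 wells with Smart-seq2 or Smart-seq3, per the labels' protocols. The values the authors deposited are estimated counts for 60886 features, of which 11.2% of the values above 0 were not whole. These were rounded before use. The submitters' processing notes name the TAIR10 build and DESeq2, with no role given, and the aligner and counting tool are not given in the sources used here. Gene names, types and upstream sequences came from RefSeq TAIR10.1, where 28929 of 29417 nuclear gene identifiers matched.

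Within p1 and within p2, nuclei were divided by quartiles. Each nucleus was scaled to a fixed total (CPM), and a group at 0 entered a ratio at 3 counts over the group. No p-value was computed and no doublet caller was run, since 1 nucleus was sorted per well. The members and gene lists were chosen with earlier results of these data known. Named genes were the 12 highest and 12 lowest mean log2 ratios among genes beyond 2-fold in p1 and p2 that stayed so without the highest nucleus of each group. Every list member beyond 2-fold was also named, with the 2 marker genes and, for lists with none, the 2 members with the most counts. The ratios and the 2-fold counting were tested on simulated counts, with the groups taken from the real nuclei, so the division itself was not tested. Known changes were put only on genes above a minimum mean level, so the check does not cover changes in sparse genes. Each simulated gene varied around a mean level common to all nuclei of its group. The check therefore also does not cover false counts from genes whose level rests on few nuclei, as many here do. Python 3.11.15 with pandas 2.3.3 and numpy 2.4.6 was used, and edgeR 4.0.16 only for alternative scaling factors.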

Additional observations from a re-analysis of the deposited data

How the results depend on the processing

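No paired analysis was possible because the replicate numbers only name wells and no test was made. The 24 photosynthesis genes higher in rich nuclei became 20 to 29 under other scalings, groupings of nuclei and detection filters, 27 in p1 alone, 59 in p2 alone and 1 at 4-fold, and 18 and 25 under the alternatives chosen after seeing the data (without 3 nuclei of extreme share, and with each nucleus thinned to 90000 counts). Photosynthesis genes lower in rich nuclei, 0 in the main comparison, became 2 in p1 alone, 1 in p2 alone and 1 among the 15048 genes with at least 10 counts in p1 and in p2. Over all genes, 147 higher and 221 lower became 567 and 689 in p1 alone, 544 and 716 in p2 alone, and 15 and 51 at 4-fold. With a count in at least 10% of nuclei they became 558 and 1130 of 8648 genes, with at least 50% 48 and 18 of 637 genes, which turns the balance, and with at least 10 counts 1335 and 2689. Leaving out the highest nucleus of each group gave 171 higher and 366 lower genes. Among 721 values for 55 named genes under 14 settings, 55 no longer passed 2-fold and 0 changed sign. Genes with the highest and lowest mean log2 ratios were named only if they passed without the highest nucleus of each group. For them the result under that setting was fixed by the choice. Not every named gene had a value under every setting, and missing values are not counted. A change of sign within p1 or p2 alone is not shown by these numbers. The stomatal lineage, log2 ratio of summed share in p1, was -1.47 and became 1.01 without the highest nucleus. The cause was not tested.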

Other observations

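The following single genes were picked from the 147 higher and 221 lower genes after their values were seen. They belong to no list, and nothing is said by them of the groups of genes they come from. Where only ratios or means are given, the number of nuclei behind them is not shown, and they can rest on few nuclei. PRPS20, a plastid ribosomal protein, had a mean of 698 CPM in rich against 235 CPM in poor nuclei of p1, and of 223 CPM against 55.1 CPM in p2. ALB3, which inserts antenna proteins into thylakoids, had log2 ratios of 1.76 and 1.61. HEMC, an early enzyme of chlorophyll synthesis that is in no list, had 1.49 and 2.22. GS2, the plastid glutamine synthetase that takes up ammonium from photorespiration, had 1.197 and 2.53. The tonoplast aquaporins GAMMA-TIP (1.36 and 1.22) and DELTA-TIP (1.73 and 2.67) and the cell wall expansin EXPA1 (2.46 and 2.81) were also higher, beside PIP1A.

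Among the lower genes, IAA9, a repressor of auxin response, had at least 5 counts in 4 of 15 rich and 7 of 15 poor nuclei of p1, and in 5 of 21 and 9 of 21 of p2, with log2 ratios of -3.30 and -2.98. AFB4, of the auxin receptor family, had -4.07 and -1.32. The receptor kinases SUB (-3.08 and -3.15), ERL2 (-2.16 and -1.93) and BAM1 (AT5G65700, -1.79 and -1.50) were lower, as was PHV, a class III homeodomain-zipper gene (-3.40 and -1.71). NAP57, of the pseudouridine-forming complex, had means of 218 CPM in rich against 609 CPM in poor nuclei of p1 and of 153 CPM against 645 CPM in p2. FIB2, a fibrillarin, had -2.74 and -1.95, and the histone deacetylases HD2B and HD2C had -1.52 and -2.85, and -1.35 and -3.78.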
